A study of Mus musculus with 8 samples.

Results

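The cells described here are amacrine and related inner retinal neurons of the mouse retina, taken as 136 of the 3747 wells of 6 single-cell RNA libraries. A well was selected when at least 3 of 9 genes (Gad1, Gad2, Slc32a1, Slc6a9, Tfap2a, Tfap2b, Snhg11, Meg3 and Calb1) were detected and together reached at least 2000 CPM, the well's reads scaled to a common total. Apoe had to stay below 15000 CPM and the sum of 6 bipolar cell genes (Trpm1, Pcp2, Prkca, Car8, Gpr179 and Grm6) below 5000 CPM. These measured values chose the wells, so the levels of the 16 genes, and any contrast of the selected wells with the rest, are given as a description without a test.

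Amacrine cells are the interneurons of the inner plexiform layer, where they inhibit bipolar terminals, ganglion cells and one another. Most release GABA, made by the glutamate decarboxylases Gad1 and Gad2, or glycine, which the transporter Slc6a9 takes up, and the vesicular carrier Slc32a1 loads both transmitters. Horizontal cells of the outer retina and displaced or ganglion-type neurons share part of this programme, among it the AP-2 transcription factor Tfap2b, calbindin (Calb1) and the neuronal long non-coding RNAs Meg3 and Snhg11.

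The retinas came from mice labelled male, either wild type (WT) or mutant for Spata7, a photoreceptor cilium gene whose loss leads to photoreceptor degeneration. The reads of the library labelled WT 1 month go against that sex, as given below. Per the labels, both genotypes were on a C57BL6/J background, and there was 1 RNA library per genotype at each of 1, 3 and 6 months, so no age has a replicate. Wells seen under the microscope to hold 1 live cell or nucleus were sequenced from the 3′ ends of transcripts on the ICELL8 nanowell system. Accessible chromatin of whole retina was listed for 1 library each, from WT at 7 months and from the Spata7 mutant (KO) at 6 months.

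Windows of 300 bases around the starts of 4 transmitter genes are printed because peaks over 3 of them (Gad1, Gad2 and Slc32a1) differed between the 2 chromatin lists, while Slc6a9 had a peak in both. They run from 250 bases before to 50 after the start and come from RefSeq on GRCm38.p6. Gad1 is at chr2:70561879-70562178, Gad2 at chr2:22622077-22622376, Slc32a1 at chr2:158610508-158610807 and the first of 3 Slc6a9 windows at chr4:117835008-117835307, all on the plus strand, written 5′ to 3′. Capitals mark matches to GCCNNNGGC, the core read by AP-2 factors such as Tfap2a and Tfap2b, and to CANNTG, the E-box read by basic helix-loop-helix factors. Both motifs read the same on either strand.
Gad1: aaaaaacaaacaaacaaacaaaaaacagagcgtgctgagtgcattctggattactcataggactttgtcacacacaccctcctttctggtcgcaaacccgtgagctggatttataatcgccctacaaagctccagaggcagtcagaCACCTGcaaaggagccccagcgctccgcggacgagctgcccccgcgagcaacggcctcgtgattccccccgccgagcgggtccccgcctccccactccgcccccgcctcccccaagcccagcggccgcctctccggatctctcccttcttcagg
Gad2: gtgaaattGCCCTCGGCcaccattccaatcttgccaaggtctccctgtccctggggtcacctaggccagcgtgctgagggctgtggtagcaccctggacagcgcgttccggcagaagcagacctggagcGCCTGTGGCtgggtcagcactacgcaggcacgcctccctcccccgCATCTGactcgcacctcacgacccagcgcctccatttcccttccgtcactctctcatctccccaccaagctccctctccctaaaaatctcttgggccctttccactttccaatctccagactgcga
Slc32a1: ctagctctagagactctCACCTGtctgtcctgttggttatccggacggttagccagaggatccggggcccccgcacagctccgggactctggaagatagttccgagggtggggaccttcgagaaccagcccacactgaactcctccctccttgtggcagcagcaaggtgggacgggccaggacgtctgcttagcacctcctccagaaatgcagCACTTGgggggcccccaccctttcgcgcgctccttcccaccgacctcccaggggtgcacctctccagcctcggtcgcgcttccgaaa
Slc6a9: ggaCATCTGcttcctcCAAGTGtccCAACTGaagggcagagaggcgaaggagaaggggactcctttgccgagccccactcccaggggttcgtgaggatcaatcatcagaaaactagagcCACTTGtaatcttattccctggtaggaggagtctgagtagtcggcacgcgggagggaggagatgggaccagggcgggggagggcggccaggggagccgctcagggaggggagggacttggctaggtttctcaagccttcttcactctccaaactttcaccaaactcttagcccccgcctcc
The Gad2 window held 2 matches to the AP-2 core, which occurred in 16.6% of 32851 promoter windows, and the other 3 windows held 0. E-boxes numbered 1, 1, 2 and 4 in the Gad1, Gad2, Slc32a1 and Slc6a9 windows and occurred in 72.3% of windows. A match is a description of the letters, not of a bound site.

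The KO list held a peak over the start of Gad1, Gad2 and Slc32a1, and the WT list held none there. The KO peaks spanned chr2:70560797-70564094 at Gad1, chr2:22621959-22622691 at Gad2 and chr2:158610486-158614363 at Slc32a1. In the WT list the nearest Gad1 peak ended at position 70561435, upstream of the window, the nearest Slc32a1 peak began at 158612115, downstream of it, and no WT peak was annotated to Gad2. Slc6a9 had a peak over the printed window in both lists, spanning chr4:117834632-117837142 in WT and chr4:117834601-117837142 in KO. Over the 9 selecting genes, of which Calb1 had no window to compare, a promoter window was overlapped for 1 gene in WT (Slc6a9) and for 6 in KO (Gad1, Gad2, Slc32a1, Slc6a9, Tfap2a and Snhg11). Peaks typed as promoter but outside the windows were also listed. In WT these included Gad1 at a distance of -607 bases and Tfap2a at 0, and in KO Calb1 at 0. The background was 42.2% of all promoter windows in WT and 47.9% in KO, counted per window, while some of these genes have several windows. The KO list also held more peaks in all, 91130 against 56797. Barhl2, a homeodomain factor of amacrine and ganglion cells, had 0 annotated peaks in WT and 15 in KO, and the eye-field factor Pax6 had 14 and 15. Each list is 1 library of another age and unknown depth, so genotype, age, depth and the makeup of the retina cannot be told apart.

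The selected wells numbered 14 of 718 at 1 month, 9 of 216 at 3 months and 22 of 347 at 6 months in WT. In KO they numbered 7 of 792, 13 of 797 and 71 of 877. The shares were 1.95% (exact 95% Clopper-Pearson interval 1.07 to 3.25), 4.17% (1.92 to 7.76) and 6.34% (4.02 to 9.44) in WT and 0.884% (0.356 to 1.81), 1.63% (0.871 to 2.77) and 8.10% (6.38 to 10.1) in KO, in order of age. The share was higher at each later age in both genotypes, and KO lay below WT at 1 and 3 months and above it at 6 months. The mean KO minus WT difference was -0.615 percentage points, with an exact two-sided permutation p of 0.75 for genotypes swapped within age, where 0.25 is the smallest p possible. The intervals cover counting error only, not animals, and reads are not independent molecules.

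Depth differed between the libraries: it rose with the share over the 3 KO libraries, while in WT the library of 1 month was deepest and had the lowest share. Its part in the shares was not tested beyond thinning. At 1, 3 and 6 months the median selected well of WT held 457257, 80621 and 108807.5 reads and that of KO 36951, 88986 and 147189, against 182991.5, 44093 and 49907 and 25416, 52968 and 111092.5 in the other wells. After every well was thinned to 10000 reads the difference was -0.442 points. Among the selected wells 61 had exactly 3 of the 9 genes and none had more than 7. The 3 selected wells nearest the CPM limit summed to 2030, 2050 and 2058 CPM, and the 3 nearest below it to 1942, 1927 and 1905 CPM.

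**Figure D1:**
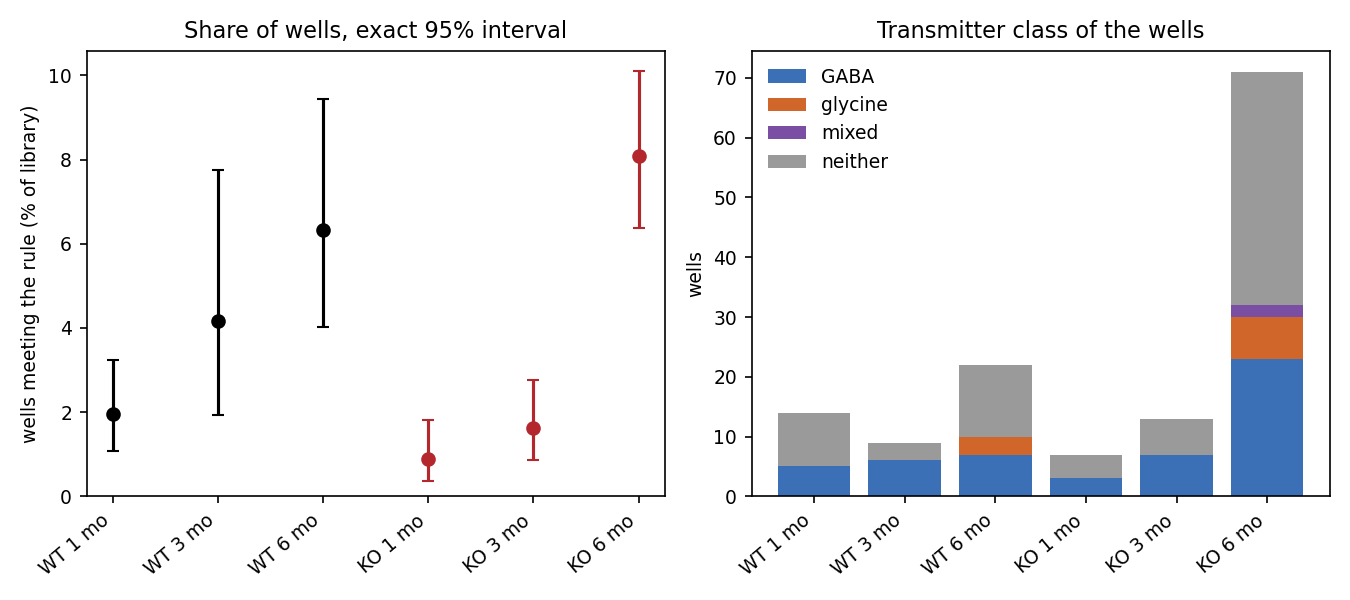
Left, wells meeting the selection rule as a percentage of each library (points), with exact 95% intervals, WT in black and KO in red. Right, the number of those wells in each transmitter class. The KO 6 month library gives 71 of the 136 wells, and glycine wells appear at 6 months alone, 3 in WT and 7 in KO.

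The targeted gene and the sex label were checked in the selected wells first. Spata7 reached 30.2, 0 and 119 CPM of the summed reads in WT at 1, 3 and 6 months and 0 in each KO library, where 3 reads would equal 9.13, 2.14 and 0.245 CPM. Over all wells it reached 26.1, 20.2 and 32.2 CPM in WT and 4.07, 1.38 and 3.58 CPM in KO. Whether those reads lie in the deleted stretch was not examined. The library labelled WT 1 month goes against its male label: Xist, the RNA of the inactive X chromosome, was read in 10 of its 14 selected wells and 4 genes of the Y chromosome had 0 reads. The other 5 libraries had 0 Xist reads in selected wells and between 34 and 2872 reads of the Y chromosome genes. The edgeR calls between genotypes are therefore also given without it, while DESeq2, limma and the tallies over gene lists include it.

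The genes that chose the wells were unevenly represented among them, which is a description of the selection. Snhg11 and Meg3 were read in 129 and 130 of the 136 wells, Tfap2b in 71, Gad1 in 52, Calb1 in 51, Slc32a1 in 46, Gad2 in 31, Tfap2a in 23 and Slc6a9 in 16. Summed over the wells of a library, Gad1 was at 235, 520 and 273 CPM in WT and 673, 509 and 188 CPM in KO at 1, 3 and 6 months. It overlapped between the genotypes. Gad2 was at 71.7, 265 and 211 CPM in WT and 94.3, 118 and 110 CPM in KO, again overlapping. Tfap2b was at 585, 553 and 207 CPM in WT and 12.2, 961 and 342 CPM in KO, lowest in the KO library of 1 month and highest in that of 3 months. Slc6a9 was read in 0, 0 and 3 wells of WT and in 0, 1 and 12 wells of KO. At least 1 of the 6 genes Gad1, Gad2, Slc32a1, Slc6a9, Tfap2a and Tfap2b was read in 126 wells, and the other 10 wells met the rule on Snhg11, Meg3 and Calb1 alone.

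Genes outside the rule allow the label to be compared with the wells. At 10000 reads per well, Pax6 was detected in 64.7% of the selected wells and in 12.8% of 1446 rod-rich wells (20 rod genes at 100000 CPM or more), a population that should lack amacrine transcripts. Median depths before thinning were 128497.5 and 66966 reads. The same shares were 12.5% and 0.415% for Tfap2c, 13.2% and 0.346% for Barhl2, 14.7% and 0.761% for Ebf1, an amacrine-expressed helix-loop-helix factor, and 23.5% and 9.75% for Meis2. Pax6 summed to 744, 540 and 771 CPM in WT and to 3.04, 183 and 940 CPM in KO, and exceeded the other wells in 5 of 6 libraries, all but KO 1 month. Its share at 10000 reads was 19.0% in all other wells, above that in the rod-rich wells. Among the amacrine transcription factors listed, Ptf1a and Lmx1b had no reads in any selected well, and Neurod6 and Fezf1 had reads in 1 well each.

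The 7 wells of the KO library of 1 month go against the label. Of 5 amacrine factors outside the rule (Tfap2c, Pax6, Meis2, Barhl2 and Neurod2), 1 had any reads there, Pax6 at 3.04 CPM, against a sum of 208 CPM in the other wells of that library. In the remaining 5 libraries 4 or 5 of these factors had reads. They summed to 1018, 751 and 1167 CPM in WT and 241 and 1275 CPM in KO at 3 and 6 months, against 177, 178 and 237 CPM in the other wells of WT and 219 and 251 CPM in those of KO. KO at 3 months was thus close to its other wells, and the other 4 libraries were more than 4-fold above theirs. The 20 rod genes summed to between 50590 and 133300 CPM in the KO 1 month wells, with a median of 97530, close to the median of 102300 CPM in that library's other wells. Medians in the other selected wells were 4550, 23180 and 27040 CPM in WT and 16220 and 33300 CPM in KO at 3 and 6 months. Single wells there reached 56530, 46050 and 113100 CPM in WT and 96790 and 156600 CPM in KO. Wells above the rod-rich limit of 100000 CPM thus also occurred in both libraries of 6 months. The cone genes summed to as much as 53240 CPM in a KO well of 6 months. All 20 rod genes had reads in the selected wells of every library. The wells of KO 1 month met the rule on Snhg11 (6 wells), Meg3 (5), Calb1 (3), Gad1, Slc32a1 and Tfap2b (2 each) and Gad2 (1).

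**Figure D2:**
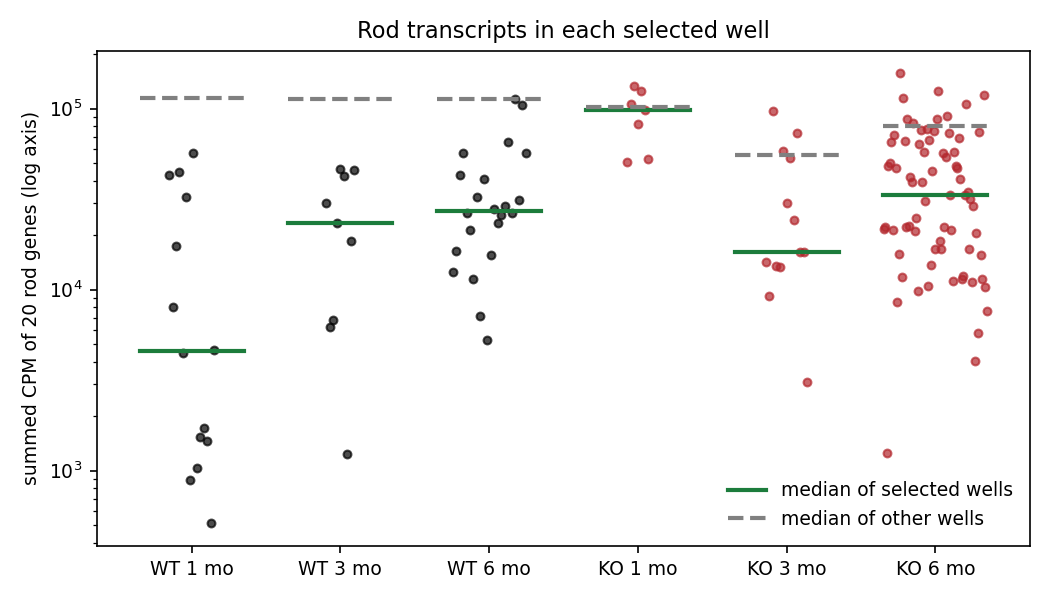
Summed CPM of 20 rod genes (log axis) in each selected well by library, WT in black and KO in red, with the median of the selected wells (green) and of the other wells of the same library (grey, dashed). The KO 1 month wells lie at 50590 CPM or more. The other libraries reach down to 512.6 to 5271 CPM and up to 46050 to 156600 CPM.

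Genes of synaptic input and release did not enter the rule. At 10000 reads, 16 of 21 glutamate receptor genes had a higher share in the selected wells than in all other wells and 4 a lower one (median difference 2.45 percentage points), and 20 of 23 vesicle and release genes a higher and 3 a lower one (median 7.41 points). Selected wells yielded more genes at that depth in 5 of 6 libraries, and of all 22039 genes read in any well 53.9% had a higher share there (median 0.331 points), or 76.8% of the 10903 genes read in at least 1% of wells (median 2.42 points). The receptor tally was thus close to the latter background. Gria2 and Gria4, subunits of AMPA-type glutamate receptors that receive bipolar cell input, were detected in 66.2% and 44.9% of the thinned selected wells and in 8.51% and 2.49% of the rod-rich wells. Gria4 was above the other wells in 6 of 6 libraries, at 143, 157 and 322 CPM against 36.9, 23.8 and 42.5 CPM in WT and at 143, 348 and 296 CPM against 28.3, 53.8 and 51.4 CPM in KO. Gria3 was detected in 28.7% and 0.899%, and the kainate receptor subunit Grik2 in 14.7% and 0.692%. Summed reads of Gria2, Nrxn3 and Sv2a exceeded those of the other wells in 5 of 6 libraries each, and those of Gria3 in 4. Among genes of release and adhesion, the presynaptic adhesion gene Nrxn3 was detected in 61.8% of the selected wells against 9.13% of the rod-rich wells, and the vesicle protein gene Sv2a in 52.9% against 8.30%. The vesicle fusion genes Snap25 and Syt1, which photoreceptors also use, were detected in 97.1% and 94.9% of the selected wells and still in 78.4% and 68.9% of the rod-rich wells. Cplx4, a complexin of photoreceptor and bipolar ribbon synapses, went the other way, at 58.8% against 82.5%. Across all genes, chosen after their values were seen, Gria2, Celf4, Sparcl1, Pax6 and Ttc3 had the largest excess over all other wells, of 52.2, 47.3, 46.8, 45.7 and 43.8 percentage points.

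Receptors for the wells' own transmitters were read in part of them. The GABA-A receptor subunit Gabrg3 was detected in 13.2% of the thinned selected wells and in 0.207% of the rod-rich wells, and Gabra3 in 8.82% and 0.346%. Gphn, which encodes the scaffold that anchors GABA and glycine receptors, was detected in 23.5% and 4.70%, and the glycine receptor subunit Glra3 in 14% and 0.415%. Gabrr1 and Gabrr2, the rho subunits known from bipolar terminals, were at 8.82% each, against 9.50% and 13.9% in all other wells. That comparison is with all other wells, not with the rod-rich wells used for the genes before. Gabrg3 reached 1030 CPM in WT at 3 months and 27.8 and 39.7 CPM at 1 and 6 months, and 0, 75.5 and 50.3 CPM in KO. The library of 9 wells stood alone in that gene.

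**Figure D3:**
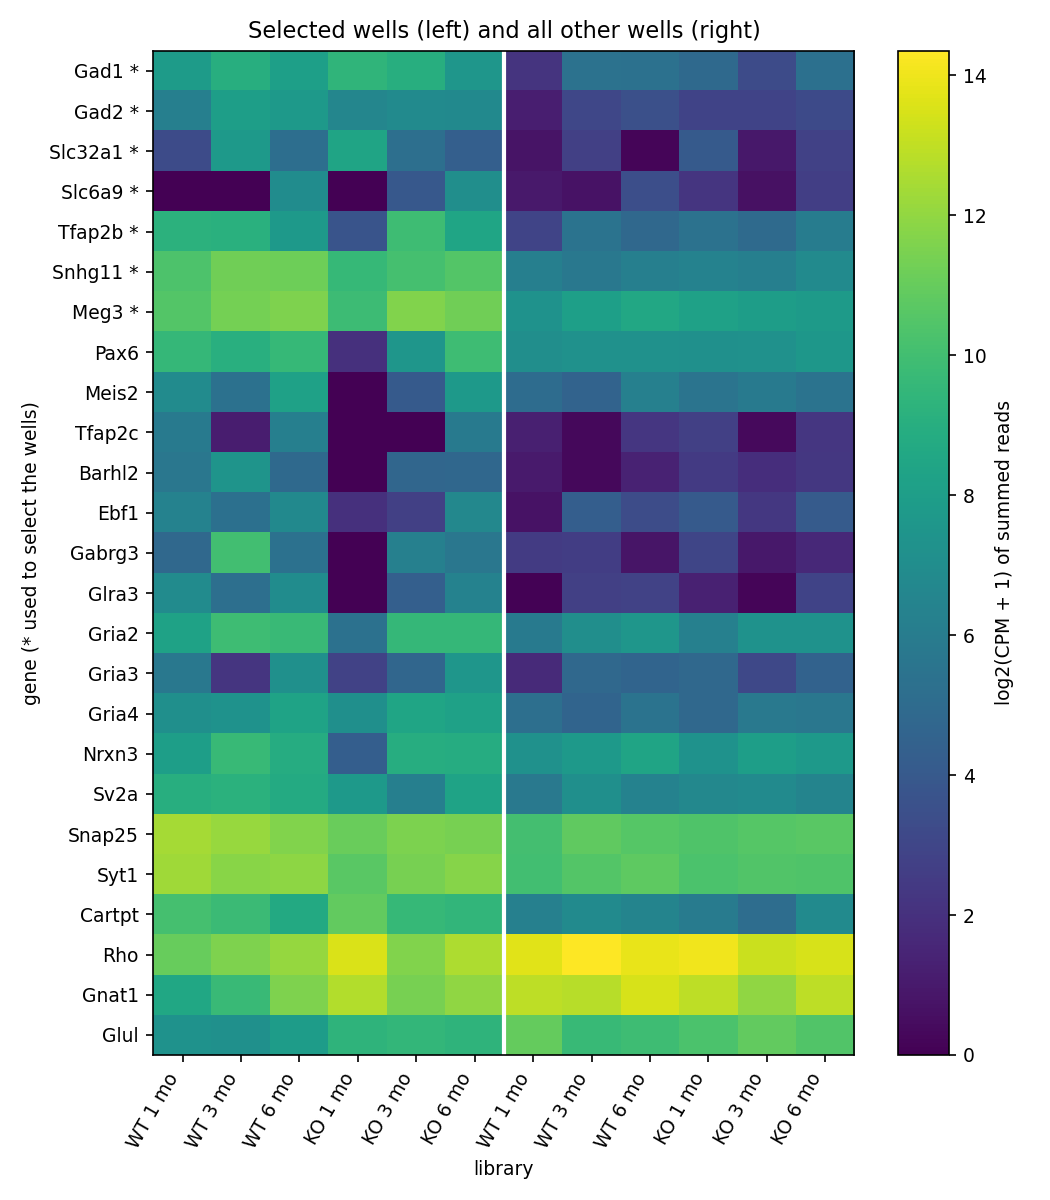
Level of 25 genes as log2(CPM + 1) of reads summed over the selected wells (left 6 columns) and over all other wells (right 6 columns) of each library, with genes used by the rule starred. Pax6, Gria2, Nrxn3 and Sv2a are brighter on the left in most libraries, and the column of KO 1 month lacks Meis2, Tfap2c, Barhl2, Gabrg3 and Glra3.

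The transmitter classes were set by Gad1 + Gad2 against Slc6a9. A well was called GABA or glycine when that side reached 100 CPM and 3 times the other, mixed when at least 1 side reached 100 CPM without that ratio, and neither when both were below 100 CPM. There were 51 GABA, 10 glycine, 2 mixed and 73 neither wells. GABA wells numbered 5, 6 and 7 in WT and 3, 7 and 23 in KO, and glycine wells 0, 0 and 3 in WT and 0, 0 and 7 in KO. Glycine wells were thus 3 of 10 typed wells (exact 95% interval 6.67 to 65.3%) in WT and 7 of 30 (9.93 to 42.3%) in KO at 6 months. None among 5, 6, 3 and 7 typed wells in the younger libraries has exact upper limits of 52.2, 45.9, 70.8 and 41% for the share, so the few typed wells cannot show whether glycine wells were absent. KO minus WT was -6.67 percentage points at 6 months, given without a test. With a minimum of 500 CPM and ratio of 10 it was 1.67 points, and with a ratio of 1 it was -1.88 points. Of the 61 typed wells 8 lay within 2-fold of the 100 CPM limit.

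**Figure D4:**
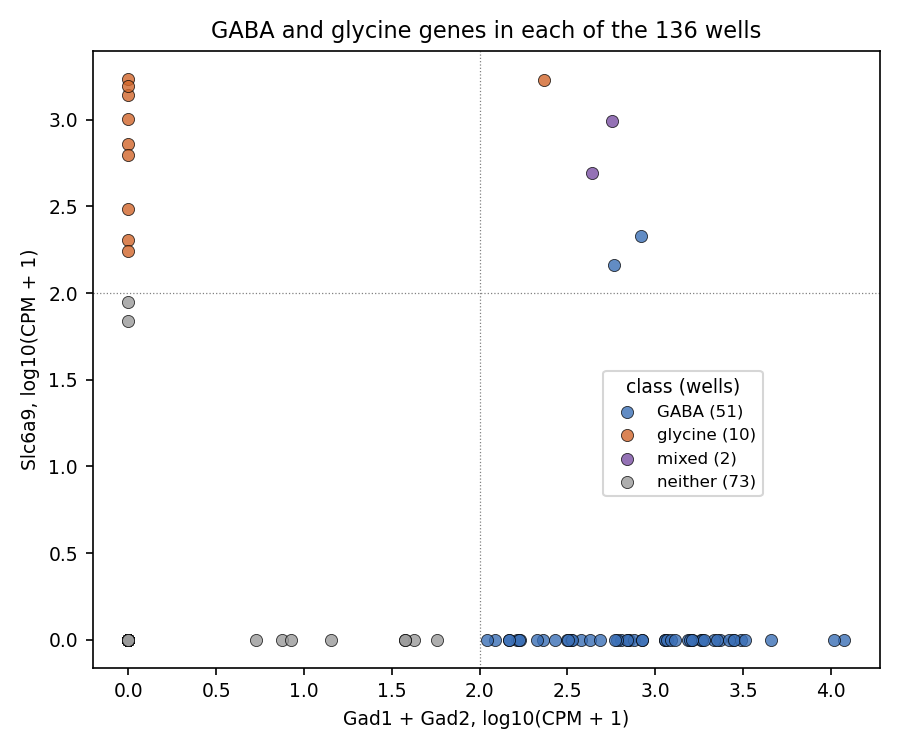
Gad1 + Gad2 against Slc6a9 in each of the 136 wells, both as log10(CPM + 1), coloured by class, with dotted lines at the 100 CPM limit. Most wells lie on one axis or at the origin: all but 2 of the 51 GABA wells are at 0 for Slc6a9, and all but 1 of the 10 glycine wells at 0 for Gad1 + Gad2.

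GABA wells held 109 to 11880 CPM of Gad1 + Gad2, with a median of 828 CPM. Both decarboxylase genes were read in 21 of the 51 wells, Gad1 alone in 23 and Gad2 alone in 7. Meis2, a homeodomain factor that did not enter the classes and is named here after its values were seen, reached 100 CPM in 18 of 51 GABA, 0 of 10 glycine and 8 of 73 neither wells. The vesicular carrier Slc32a1 was read in 17 of 51 GABA, 3 of 10 glycine and 26 of 73 neither wells.

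Glycine wells held 173 to 1724 CPM of Slc6a9, with a median of 868 CPM, and 1 of the 10 had Gad2 reads. Pax6 reached 100 CPM in 8 of them. The rod-pathway AII type is a glycine amacrine cell coupled through connexin 36 (Gjd2) and marked by Dab1. Gjd2, Dab1 and Gria3 reached 100 CPM together in the same well in 6 of the 136 wells, of which 2 were glycine, 1 mixed, 3 neither and 0 GABA. In the WT well of 6 months they were at 2018, 1056 and 2605 CPM beside 1724 CPM of Slc6a9. The 5 KO wells of 6 months had 314 to 982 CPM of Gjd2. Singly, Gjd2, Dab1 and Gria3 reached 100 CPM in 1, 6 and 9 of 51 GABA wells. They did so in 3, 4 and 6 of 10 glycine and 4, 19 and 16 of 73 neither wells. Slc6a5, the other plasma membrane glycine transporter, was read in 6 GABA, 3 glycine and 6 neither wells, 12 of the 15 outside the glycine class.

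The contrast of glycine with GABA wells could be fitted only over the 2 libraries of 6 months, with the library as a block, 1 residual degree of freedom and at least 3 wells a class. At a false discovery rate of 0.05, edgeR called 1 of 6860 genes lower in glycine wells (0.0146%) and 0 higher (0%), and 75 had an unadjusted p under 0.05. The called gene was Gm42418, an unnamed gene overlapping ribosomal RNA, at a log2 change of -0.50 (SE 0.06) and an adjusted p of 7.4e-13. It was named after its values were seen, and its CPM went 63150 to 39980 in WT but 59110 to 62770 in KO. DESeq2 called 0 genes, with 787 at an unadjusted p under 0.05. Cartpt, the precursor of the CART peptide, was at 158 and 402 CPM in the GABA wells of WT and KO and at 3320 and 1552 CPM in the glycine wells. Its log2 difference was 2.95 (SE 0.82), and its edgeR adjusted p of 0.31 did not pass. The WT glycine level of Cartpt rested on 1 well at 5702.5 CPM, beside wells at 66.8 and 0 CPM. Cartpt reached 100 CPM in 30.0% of glycine and 29.4% of GABA wells. The complexin gene Cplx3 was at 171 and 796 CPM in GABA wells and 1568 and 2015 CPM in glycine wells, with a log2 difference of 2.05 and an adjusted p of 1 in edgeR. The receptor phosphatase gene Ptprf had the smallest p among genes with one direction in both libraries, with 1.00 and 94.5 CPM in GABA wells against 3049 and 570 CPM in glycine wells, at an edgeR adjusted p of 0.078. Of 6 tested genes of electrical coupling and the AII type, 5 lay above 0 with a median log2 difference of 2.66, beside a median of -1.27 over all genes, and 0 were called. Of the markers of other cell types in the same fit, 7 of 7 ganglion genes (median -3.13) and 5 of 6 cone genes (median -2.78) lay below 0. The medians were -0.32 for 20 rod, -0.29 for 10 Müller and -0.33 for 8 bipolar genes and 0.59 for 3 horizontal genes, and the amacrine markers outside the rule had 5 of 6 below 0 (median -3.02). Their part in the contrast was not tested. Without the wells that held 500 CPM or more of Slc17a6, an alternative added after the data were seen, 1 gene was called, the ganglion genes had 6 of 7 below 0 (median -3.01) and the AII list a median of 2.63. An interaction of class with genotype could not be fitted.

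Wells of neither class were of several kinds. Lhx1 or Onecut factors, which specify horizontal cells, were read 2 or more at a time in 6 wells, 1 in each WT library and 3 in KO at 6 months. Those wells held 3884 to 24490 CPM of Calb1, and Lhx1 at 1194, 214 and 123 CPM in the WT wells and 438, 296 and 884 CPM in the KO wells. Sept4 (1962 to 6271 CPM), the anion exchanger Slc4a3 (3062 to 8887 CPM) and the tropomyosin Tpm3 (2497 to 5752 CPM) were high in all 6. A further 4 wells held 2 or more ganglion cell factors (Pou4f1, Pou4f2, Pou4f3, Isl2 or Rbpms), 2 in WT at 1 month and 1 each in KO at 3 and 6 months. They carried Slc17a6, the vesicular glutamate transporter of ganglion cells, at 579, 656, 660 and 1801 CPM and the synuclein Sncg at 5397, 4982, 4325 and 3129 CPM. The KO well of 3 months also held 2968 CPM of melanopsin (Opn4) and 145 CPM of the neuropeptide gene Adcyap1, both known from intrinsically photosensitive ganglion cells. The remaining 63 neither wells included 40 with Tfap2a or Tfap2b reads and 22 with Slc32a1 reads, and 9 with none of the 6 genes named above. A GABA well of WT at 6 months also carried ganglion genes, with 228 CPM of Gad1 beside 2115 CPM of Slc17a6, 5650 CPM of Nefl and 1 of the 5 factors (Rbpms). Horizontal and ganglion wells are thus part of every count over all 136 wells, and that well is part of the GABA class.

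A vesicular glutamate transporter marks a rarer amacrine type. Slc17a8 reached 100 CPM in 6 wells, at 982 to 5663 CPM, 2 in WT at 6 months, 1 in KO at 3 months and 3 in KO at 6 months. Gad1, Gad2 and Slc6a9 had 0 reads in 5 of the 6, and the other had 109 CPM of Gad1. Most peptide genes were read in few of these 136 wells. Vip was read in 3 wells at 458 to 2462 CPM, galanin (Gal) in 3 and Npy in 10, of which 3 exceeded 1000 CPM. Of the markers of the cholinergic starburst type, Chat was read in 2 wells at 19.0 and 303 CPM and Slc18a3 in 2. The choline transporter Slc5a7 was read in 3, at 2047 CPM in a GABA well of WT at 3 months and at 2014 and 58.3 CPM in neither wells of KO at 6 months, the first of which also held Slc18a3. The dopamine-synthesis gene Th was read in 1 well, a GABA well of WT at 6 months, at 306 CPM, and Ddc in 0. Wells with 0 reads may still hold the transcript, since some wells had few reads.

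Cartpt was the peptide gene read most widely, in 60 of 136 wells. It was above the other wells in 6 of 6 libraries, at 1090, 869 and 428 CPM against 75.0, 117 and 86.8 CPM in WT and at 1890, 777 and 696 CPM against 62, 34 and 116 CPM in KO. The genotypes overlapped. In the 42 wells with at least 100 CPM the level ran from 107 to 13250 CPM, with a median of 1394 CPM. Those wells were 15 of 51 GABA (29.4%), 3 of 10 glycine (30.0%) and 23 of 73 neither wells (31.5%), and 1 of the 2 mixed wells. At 10000 reads Cartpt was detected in 30.1% of selected and 8.51% of rod-rich wells.

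No gene passed the threshold for a difference between KO and WT in the selected wells. With all 6 libraries and age as a factor, edgeR called 0 of 8118 genes outside the rule as higher and 0 as lower at a false discovery rate of 0.05 (0% each way), and 84 had an unadjusted p under 0.05. The ages stand in as replicates, with 2 residual degrees of freedom. DESeq2 called 10 higher and 1 lower among 16906 genes entered, with 1036 at an unadjusted p under 0.05, and limma on mean log2 values called 0, with 230. Without the library labelled WT 1 month edgeR called 3 genes, Car2, Sag and mt-Rnr2, all higher in KO, and without KO 1 month it called Car2 and mt-Rnr2. With age as a factor both fits take the genotype difference from the same 4 libraries of 3 and 6 months, with 1 residual degree of freedom, so they are not separate evidence.

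Carbonic anhydrase 2 (Car2), an enzyme of pH regulation found in Müller glia and some amacrine cells, was at 279, 302 and 506 CPM in WT and at 1655, 3683 and 1484 CPM in KO. The genotypes did not overlap, but the gene was named for one direction at every age, so this follows in part from the choice. The log2 difference was 2.36 (SE 0.75) and did not pass (edgeR adjusted p of 1), but from the libraries of 3 and 6 months it was 2.66, with an adjusted p of 2.4e-05 when WT 1 month was left out and of 9.2e-05 when KO 1 month was. In KO it was read in 3 of 7, 12 of 13 and 70 of 71 selected wells and in WT in 12 of 14, 4 of 9 and 18 of 22. In the other wells of the same libraries Car2 was at 1210, 1200 and 940 CPM in WT and 1040, 1760 and 1410 CPM in KO. The Müller genes outside the rule summed to 653, 2350 and 2401 CPM in the selected wells of WT and 5983, 3376 and 3091 CPM in KO, with 11 of 12 tested above 0 in the KO minus WT fit. Their part in the Car2 values was not tested.

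Sag, rod arrestin, had the smallest unadjusted p. It was at 571, 1103 and 3062 CPM in WT and 19160, 2901 and 5559 CPM in KO, so KO at 3 months lay within the WT range. The log2 difference was 2.17 (SE 0.53) with an edgeR adjusted p of 0.41, and it passed with DESeq2 size factors (2.15, adjusted p of 8.0e-05) and without WT 1 month (1.21, 0.0079). It did not pass without KO 1 month (1.21, 0.21), which rests on the same 4 libraries for the difference, in DESeq2 (adjusted p of 0.84) or without any 1 library of 3 or 6 months (adjusted p of 1 in edgeR). Gnat1, rod transducin, was at 376, 840 and 3018 CPM in WT and 6549, 2668 and 4045 CPM in KO, with an edgeR adjusted p of 1. All 20 tested rod genes lay above 0, with a median log2 difference of 0.80, and so did 9 of 9 cone genes, with a median of 2.27, beside a median of -0.36 over all genes. None of them was called. The rod genes together summed to 10810, 19250 and 29380 CPM in the selected wells of WT and 83090, 23880 and 39710 CPM in KO, and reads of rods in these wells cannot be told apart from expression by the cells themselves. The mitochondrial ribosomal RNA mt-Rnr2 was at 8325, 8108 and 9794 CPM in WT and 9893, 15430 and 17630 CPM in KO. In the other wells it was at 14900, 14900 and 14700 CPM in WT and 11900, 23600 and 22100 CPM in KO, so it was higher in KO at 3 and 6 months there too.

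Among the named genes lower in KO at every age, which did not pass (edgeR adjusted p of 1 for each), were 2 that mark horizontal cells. Sept4 was at 682, 1333 and 1013 CPM in WT and 0, 272 and 247 CPM in KO, and Slc4a3 at 400, 890 and 547 CPM and 0, 129 and 238 CPM. The genotypes did not overlap in either, but both genes were named for one direction at every age. Without the 10 wells that held horizontal or ganglion factors Sept4 was at 15.1, 68.7 and 244 CPM in WT and 0, 347 and 85.8 CPM in KO, which overlap. Slc4a3 was then at 6.73, 0 and 42.1 CPM in WT and 0, 164 and 23 CPM in KO, which also overlap. Its log2 difference went from -3.41 to -0.28 without those wells. Of the horizontal markers outside the rule 6 of 9 were tested and all 6 lay below 0, with a median of -3.92, and none was called. Horizontal wells were 1 of 14, 1 of 9 and 1 of 22 selected wells in WT and 0 of 7, 0 of 13 and 3 of 71 in KO, and their part in these values beyond the refit without them was not tested. Actb, cytoplasmic actin, was at 1228, 1078 and 867 CPM in WT and 48.7, 142 and 635 CPM in KO. Without those 10 wells it was at 359, 912 and 961 CPM in WT and 48.7, 177 and 660 CPM in KO, which overlap. The remaining genes of that kind were Commd3 and Slc39a10 lower and Prdx6 and Apela higher. Apela, a small secreted peptide, had 0 reads in every WT library and 438, 83.4 and 29 CPM in KO, from 1, 2 and 10 wells. It was 1 of the 10 genes that DESeq2 called higher (adjusted p of 0.037).

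**Figure D5:**
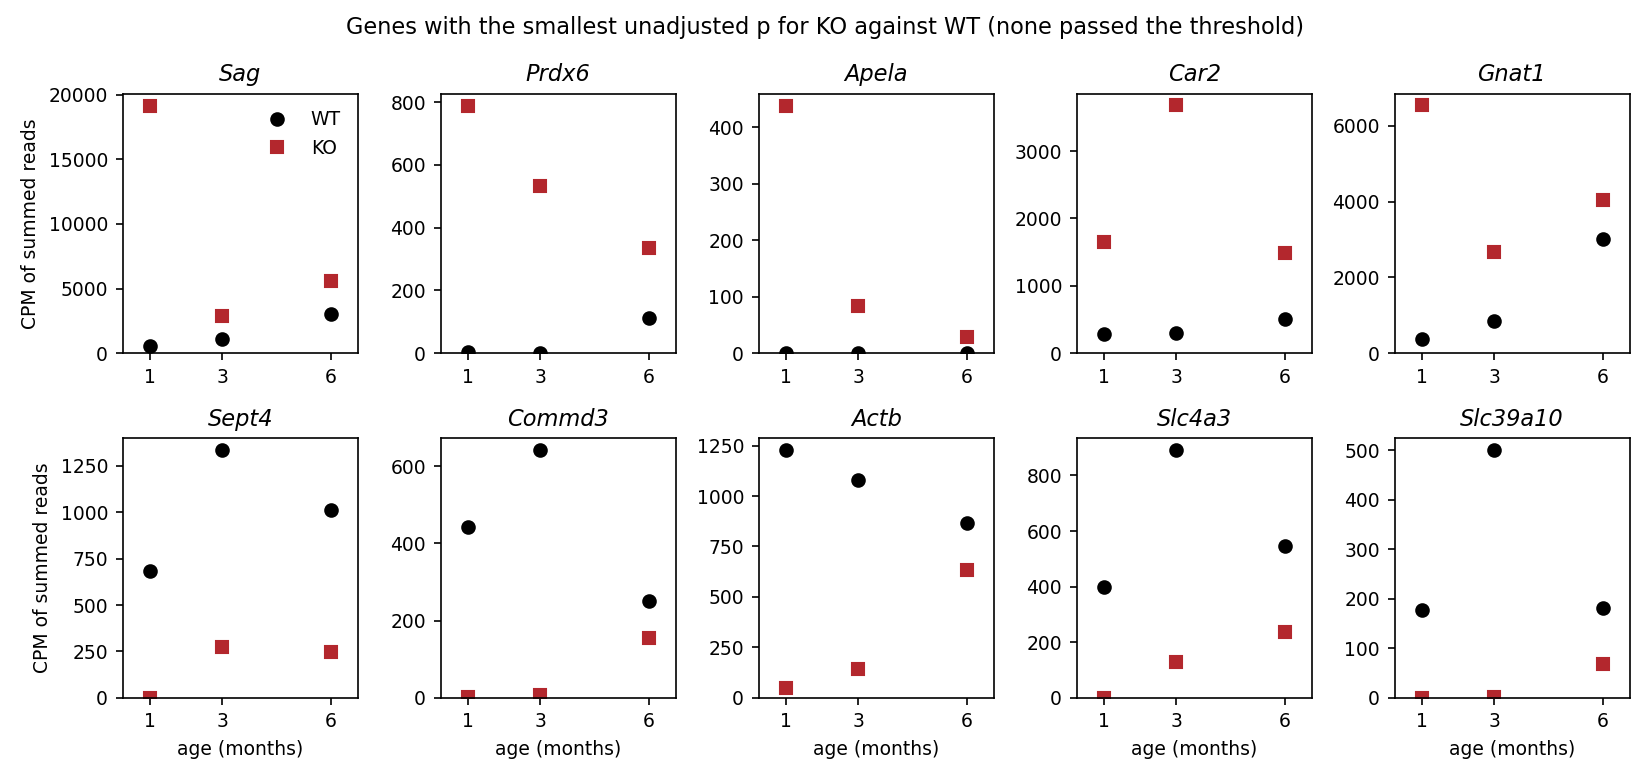
CPM of summed reads in the selected wells at 1, 3 and 6 months for the 10 genes with the smallest unadjusted p and one direction at every age, WT as black circles and KO as red squares. None passed the threshold. All were chosen for one direction at every age, so the separation of the genotypes at each age follows from that choice. Sag is highest in KO at 1 month, at 19160 CPM.

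The amacrine lists showed no call in either direction. Of the 7 amacrine markers outside the rule 1 lay above and 6 below 0, with a median of -2.18 beside -0.36 over all genes. The same 7 summed to 1342, 1217 and 1512 CPM in WT and 79.1, 575 and 1564 CPM in KO, lower in KO at 1 and 3 months and not at 6 months. Of the 24 transcription factors 16 were tested, 8 above and 8 below 0, with a median of -0.28. GABA handling and receptor genes gave 6 above and 9 below 0 of 15 (median -0.60), synaptic vesicle and release genes 8 above and 14 below of 22 (median -0.58), and glutamate receptor genes 2 above and 10 below of 12 (median -1.34). Gria2 was at 305, 947 and 853 CPM in WT and 39.6, 763 and 759 CPM in KO. It overlapped between the genotypes. Glycine handling and receptor genes had 1 above and 4 below of 5 (median -1.01), and immediate early and stress genes 7 above and 2 below of 9 (median 1.44). The 2 below were Hspa1b, at a log2 difference of -3.80, and Hsp90aa1, at -0.35. Among those above, Ier2 was low throughout, at 12.5, 0 and 20.8 CPM in WT and 88.3, 76.2 and 31.7 CPM in KO. Genes under the filter on low counts were not tested.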

How the data were processed

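Single-cell RNA reads of 6 retinal libraries and peak lists of 2 chromatin libraries were used as deposited. The deposited RNA tables hold counts of reads per gene and well, not scaled, per the file headers and values. The submitters' processing notes name CASAVA, TopHat2, HTSeq and Seurat, with mm10 and GRCm38, for RNA and Cell Ranger ATAC 1.1.0 with mm10 for chromatin; their settings are not given in the sources used here. Library totals ran from 12356586 to 182310499 reads. The members and the gene lists were chosen with earlier results of these data known.

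CPM are counts divided by the reads of the well, or of the wells summed. Reads were summed per library and tested with edgeR 4.0.16 (quasi-likelihood, TMM, filterByExpr, R 4.3.3) for KO minus WT with age as a factor. A planned minimum of 10 selected wells left 4 libraries and no residual degrees of freedom, so all 6 libraries were used, chosen after the well counts were seen. For the class contrast a planned minimum of 5 wells left 1 library, and 3 were required instead. SEs were derived from the F statistic. Genes named were up to 10 a direction past the threshold with one direction throughout, or else up to 5 with the smallest p. DESeq2 1.42.0 and limma 3.58.1 were alternatives, as were other scalings, filters, thinning and leaving out libraries. The fits were also run on simulated data, but the outcome is not reported here and lends the calls no support. The common dispersion was 1.893 in the genotype fit and 1.955 in the class contrast. With so wide a spread, a gene not called may still differ. The chromatin lists give no height, and their columns of distance in base pairs served to describe peaks. Peak starts are given counted from 1. A peak overlapped a window when they shared at least 1 base. No doublet caller was run. Some genes of the lists are not reported here. Labels name no separate animals as replicates.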

Additional observations from a re-analysis of the deposited data

Results flagged for a closer look

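The difference in the share of selected wells between the genotypes had opposite signs at different ages. KO minus WT was -1.07 percentage points at 1 month and -2.54 at 3 months and 1.76 at 6 months, with 1 library per genotype and age. The difference between the ages was not tested. With a CPM sum of 4000 in place of 2000, the 3 differences were -0.722, -2.45 and -0.218 points, so KO was the lower genotype each time. Their mean was -1.13, and the exact permutation p was 0.25, the smallest this design can give. The signs stayed opposite in the other settings. The differences were -0.992, -2.62 and 5.74 points with a CPM sum of 1000. They were -0.798, -2.64 and 2.11 points in wells thinned to 10000 reads, and -0.57, -1.56 and 0.893 points without Meg3 and Calb1 in the rule. At 6 months the selected wells of KO held a median of 147189 reads and those of WT 108807.5.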

How the results depend on the processing

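The count of 0 genes for KO against WT stayed at 0 in 11 of 15 other settings, limma among them. It was 1 with DESeq2 size factors (Sag), 11 with DESeq2, and between 0 and 3 when a library was left out, with 3 without WT 1 month and 2 without KO 1 month. The class contrast called 1 gene, 4 with DESeq2 size factors, 2 with no filter beyond 1 read, 0 with DESeq2 and 0 in wells thinned to 10000 reads. It could not be fitted without a library, with a minimum of 500 CPM and ratio of 10, or with wells that had 3 of 6 genes. The class by genotype test could not be fitted in any setting. The mean difference in the share of selected wells was -0.615 points and reversed to 0.709 with a CPM sum of 1000, and over left-out ages it ran from -1.8 to 0.345, with 0.345 without 3 months. The mean difference in the glycine share over the 3 ages was -2.22 points and 0.556 with a minimum of 500 CPM and ratio of 10, and from -3.33 to 0 over left-out ages. The cause was not tested. The genes named in the 2 fits were chosen for one direction throughout, so their kept sign shows no stability, and sizes varied (Slc4a3 from -5.59 to -0.18, Slc39a10 from -8.56 to -0.22). The labels carry no replicate numbers, so WT and KO were matched by age alone, and without the age term edgeR called 0 genes. With 7 to 71 wells a library, a gene read in a few wells is set by those wells.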
